A study of Microtus ochrogaster with 23 samples.

Results

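S1pr5 encodes a receptor for sphingosine-1-phosphate (S1P), a lipid signal that is made from sphingosine inside cells and released to act on neighbouring cells. The receptor belongs to a family of G protein-coupled S1P receptors, works through Gi and G12/13 proteins, and in the brain is best known from oligodendrocytes, the cells that make myelin. Methylation of cytosines in CpG pairs is a mark that is usually sparse in CpG-rich promoters and dense in the remaining genome, and its level is given here as the share of sequenced reads in which a cytosine was methylated. The gene was looked at because a single CpG inside it separated the “Parental” and “Father” animals in this dataset, so the gene was chosen by the levels of these animals at that CpG, which are given below without a test. All CpG cytosines on chromosome 5 (MicOch1.0) from 15353425 to 15367669 were taken, which is the annotated span of S1pr5 (15358425 to 15362669, 4245 bp) with 5 kb on each side. These numbered 203, out of 4051749 cytosines with reads in the 23 animals.

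The animals were adult prairie voles, a rodent in which mates pair and both parents rear the pups, and the tissue was dentate gyrus (DG) of the hippocampus, punched from frozen sections of each brain. Each library came from 1 wild-type animal and 100 ng of DNA, cut with MspI and sequenced after bisulfite conversion (reduced representation bisulfite sequencing, RRBS). The “Attacker” group (n = 6) held virgin males that attacked an unfamiliar pup in a test, and the “Parental” group (n = 6) held virgin males that cared for it. The “Father” (n = 5) and “Mother” (n = 6) groups held males and females that were housed with their own litter and took the same test. “Attacker” voles were compared with “Parental” and with “Father” voles, and “Father” voles also with “Parental” and with “Mother” voles. The punches hold several cell types, and a change in the makeup of the tissue cannot be told apart from a change of methylation within 1 cell type.

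Of the 203 cytosines, 117 lay in the gene span, 23 in the flank of lower coordinates and 63 in the flank of higher coordinates. An animal had 2968 to 6789 calls (a read counted once at each cytosine it crosses) at 97 to 151 of these cytosines, out of 64896224 to 129376223 calls in the whole library. The cytosines were covered unevenly across animals. Reads were present in all 23 animals at 61 cytosines, in at most 5 animals at 36 and in a single animal at 17. Every animal had 10 reads or more at 41 cytosines, of which 19 lay in the gene span. A looser set of 72 cytosines, called well-covered, had 10 reads or more in 4 or more animals of every group. For a comparison, only the 2 groups compared had to meet this. No other annotated gene overlapped these coordinates. The nearest were Keap1, 18208 bp below the start of S1pr5, and Atg4d, 12302 bp above its end. Strand and exons were not used here, so the distances below are counted from the lower-coordinate end of the gene and say nothing about the promoter.

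Most of the covered cytosines of the S1pr5 region had a low level, with methylated cytosines in a few places. When the reads of all animals were added, 130 of the 203 cytosines had a level under 10% and 19 had a level over 80%, and none of those 19 was read in all 23 animals. Distances below the gene are written as negative. Cytosines from -1512 to -477 bp had a median pooled level of 35.4% (19 cytosines). The cytosines from -18 to 1921 bp had a median of 3.82%, and the 48 cytosines from 3263 to 4798 bp, around the upper end of the gene, had a median of 2.06%. Further up the level was 6.45% at the 20 cytosines from 5462 to 5951 bp, and 79.8% at the 8 cytosines from 6457 to 6778 bp. The few cytosines above these were at 68.8% (1 at 7671 bp), 91.6% (median of 2 from 8025 to 8040 bp) and 100% (1 at 8488 bp). At the other end, 2 cytosines from -1884 to -1857 bp were at 0%, and none further down had reads.

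**Figure D1:**
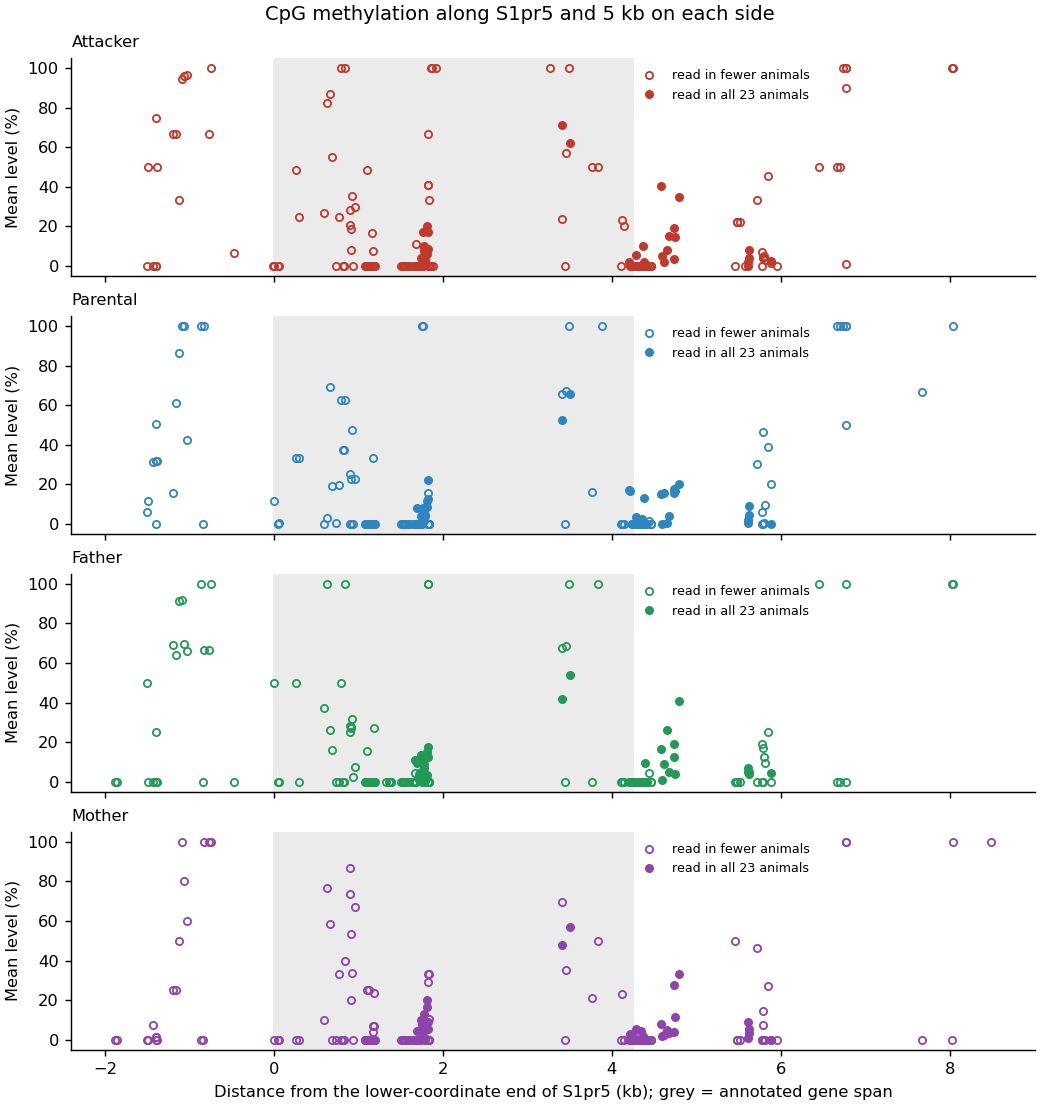
Mean methylation level (%) of each CpG cytosine over the animals of a group with reads, against its distance (kb) from the lower-coordinate end of S1pr5, for the “Attacker”, “Parental”, “Father” and “Mother” groups. Filled circles are the 61 cytosines read in all 23 animals, open circles those read in fewer, and grey is the gene span. Filled circles lie mostly near 0, and the levels that reach 100% are open circles.

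The CpG for which the gene was chosen was at chromosome 5, position 15359049, 624 bp from the lower end of the gene. It had reads in 17 of the 23 animals. The opposite-strand cytosine of this CpG had no reads in the files used here.
In “Father” voles cytosine 15359049 was methylated in all reads, 24 of 24 in replicate 1, 16 of 16 in replicate 3, 46 of 46 in replicate 4 and 21 of 21 in replicate 5, while replicate 2 had no reads. In “Parental” voles it was methylated in 0 of 35, 0 of 10, 2 of 14, 0 of 24 and 0 of 14 reads of replicates 2 to 6, and replicate 1 had no reads. The levels of the groups were therefore 100% in 4 “Father” voles and 0 to 14.3% in 5 “Parental” voles, which do not overlap. This is the choice itself, and no test is given. The “Father” vole with the fewest reads (16) has a Wilson 95% interval of 80.6% to 100%, and the “Parental” value of 14.3% one of 4.01% to 39.9%. A count of 0 in 35 reads allows a level of up to 8.57%. These intervals cover counting error only, because RRBS reads carry no molecular identifiers and may be copies of 1 molecule.

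The other groups spread more widely at cytosine 15359049. “Attacker” voles had levels of 100%, 59.3%, 100%, 100% and 52.9% in replicates 2 to 6, from 6, 27, 11, 9 and 68 reads, and none in replicate 1. The lowest of these, 52.9% (41.2% to 64.3%), was above the highest “Parental” value. “Mother” voles had reads in 3 of 6 animals, with levels of 100% in replicate 3 (8 reads), 30.4% in replicate 5 (46 reads) and 100% in replicate 6 (37 reads). All 5 “Attacker” and all 3 “Mother” values were thus above all 5 “Parental” values, and the “Attacker” and “Mother” ranges both reached the “Father” value of 100%. The contrasts that use “Parental” or “Father” animals here share the animals of the choice, and no p is given for them.

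Neighbouring CpGs read in the same fragments did not separate “Parental” from “Father” voles as the chosen CpG did. Cytosine 15359015, 590 bp from the lower end, was at 0% in all 5 “Parental” voles with reads, but “Father” voles were at 0%, 75%, 69.6% and 4.76% in replicates 1, 3, 4 and 5. “Attacker” voles were at 0%, 0%, 0%, 100% and 33.8% in replicates 2 to 6 and “Mother” voles at 0%, 30.4% and 0% in replicates 3, 5 and 6. The “Father” range therefore started at the “Parental” value, although the “Father” mean (37.3%) was the higher, as at the chosen CpG.
Cytosine 15359082, 657 bp from the lower end, had its higher values in the opposite group. “Parental” voles were at 60%, 100%, 85.7%, 100% and 0% in replicates 2 to 6, against 100%, 0%, 0% and 4.76% in the “Father” voles. These 3 CpGs had the same 416 reads in total, so the opposite order of “Parental” and “Father” means (69.1% and 26.2% at 657 bp, 2.86% and 100% at 624 bp) was found in the same reads.
At cytosine 15359110, 685 bp from the lower end and read in other fragments, the “Parental” levels ran from 0% to 60% (6 animals) and the “Father” levels from 0% to 32.4% (2 animals), and they overlapped.

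**Figure D2:**
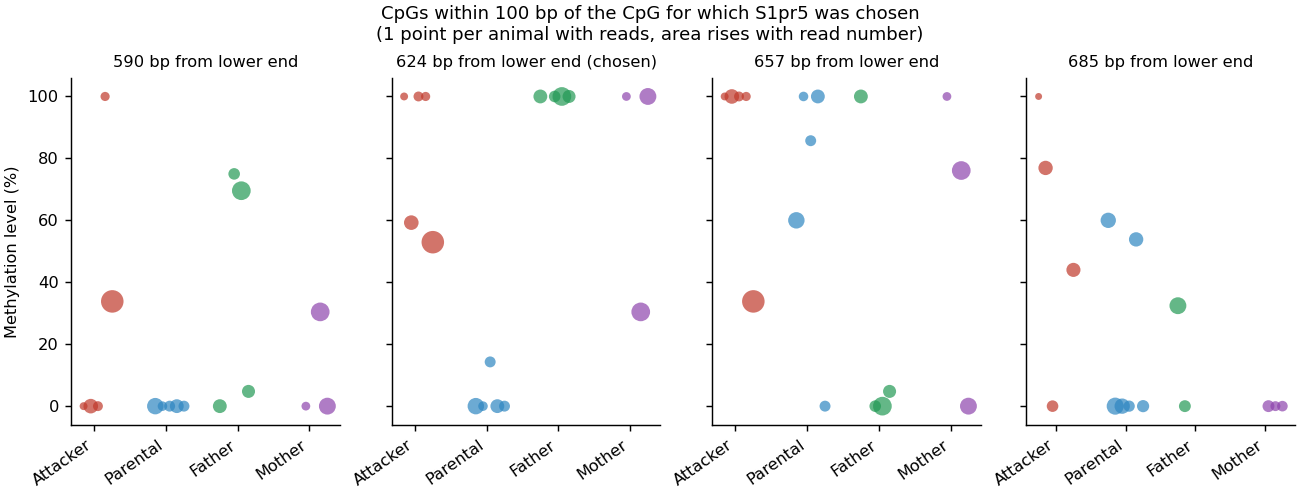
Methylation level (%) per animal at the CpG for which S1pr5 was chosen (624 bp from the lower end) and at the 3 listed cytosines within 100 bp of it, by group. Each point is 1 animal with reads, with an area that rises with its reads. At 624 bp the “Parental” values lie at 0 to 14.3% and the “Father” values at 100%, whereas at 657 bp 3 of 4 “Father” values lie at or under 4.76%.

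The choosing comparison also gave other calls in the S1pr5 region, listed as a description. A cytosine was called a DMC (differentially methylated cytosine) when a beta-binomial fit of the 2 groups put the score for a difference beyond 15% below 0.05. By this criterion 4 of 167 cytosines with reads in “Parental” and “Father” voles were DMCs, where the share over all cytosines tested was 1.2%. Besides the chosen CpG, they were cytosines 15365096, 15365131 and 15365198, at 6671, 6706 and 6773 bp, named here after their values were seen. Each had reads in 1 or 2 “Father” voles with 0% and in 1 or 4 “Parental” voles with 100%. Cytosines 15365096 and 15365131 were read in the same 74 reads, so they count as 1 place and not as separate evidence. Their reads came from “Parental” replicate 2 (18 reads) and “Father” replicates 1 (18 reads) and 2 (1 read) in this comparison. Among 82 well-covered cytosines, 1 had an adjusted p under 0.05 with a difference over 15% (0.0294% of all well-covered cytosines had). It was the chosen CpG, so this count restates the choice. At an unadjusted p under 0.05 with a difference over 15% there were 4 of the 82, where 1.13% of all were. The chosen CpG was one of these 4, so this count restates the choice in part. Cytosine 15359015, described above and read in the same reads as the chosen CpG, was also among them. Another was cytosine 15357222, at -1203 bp, at 18.2%, 44.8%, 0% and 0% in “Parental” replicates 2 to 5 and at 0%, 95.7%, 100%, 51.1% and 100% in “Father” replicates 1 to 5, so that the groups overlapped.

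For “Attacker” vs “Parental”, the question is whether virgin males that attack and those that care for pups differ at S1pr5. There were 2 DMCs among 168 tested cytosines, against 0.741% of all cytosines tested. The first was the chosen CpG, which reuses the “Parental” values of the choice and is not read as a result, so that 1 DMC is left to set against that share.
The second was cytosine 15365198 in the upper flank (6773 bp), named after its values were seen. “Attacker” voles were at 0% (7 reads), 0% (26 reads) and 3.39% (59 reads) in replicates 2, 4 and 6, and “Parental” voles at 100% in replicates 2, 4, 5 and 6, from 9, 3, 1 and 2 reads. The groups did not overlap, but the “Parental” side rested on 1 to 9 reads an animal. In the remaining groups this cytosine had reads in a single animal each, at 0% in a “Father” (10 reads) and at 100% in a “Mother” vole (9 reads).

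None of 77 well-covered cytosines passed an adjusted p of 0.05 with a difference over 15% in “Attacker” vs “Parental” (beta-binomial Wald test, Benjamini-Hochberg adjusted over all well-covered cytosines), where 0.0234% of all did. At an unadjusted p under 0.05 with a difference over 15%, 2 of the 77 passed, where 1.14% of all well-covered cytosines did. An arcsine-link linear model called none at an adjusted p with a difference over 15%.
The smallest p was at cytosine 15364210, 5785 bp from the lower end. “Parental” voles were at 0%, 78.7%, 34.6%, 58.6% and 61.1% in replicates 2 to 6. “Attacker” voles were at 0%, 5.56%, 0%, 0%, 0% and 17.8% in replicates 1 to 6. The fitted difference (“Attacker” minus “Parental”) was -41.7 percentage points ± 14.9 (SE), with an unadjusted p of 0.00512 and an adjusted p of 1. The “Parental” vole at 0% kept the groups from separating, and 4 of 5 “Parental” values were above all 6 “Attacker” values.
Cytosine 15357397, at -1028 bp, was at 85.2% to 100% in 4 “Attacker” voles, with a median of 100%. In the 6 “Parental” voles it ran from 0% to 100%, with 3 of them at 0%. The fitted difference was 52.4 percentage points ± 19.9 (SE), with an unadjusted p of 0.00837 and an adjusted p of 1.
The third, cytosine 15360193 in the gene (1768 bp), had a mean of 17% ± 14.3 (SD, n = 6) in “Attacker” and 3.44% ± 7.86 (SD, n = 6) in “Parental” voles, and the ranges overlapped. Its difference of 12.9 percentage points ± 7.23 (SE) did not pass the unadjusted threshold (p = 0.074 in the beta-binomial fit over all well-covered cytosines).

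“Attacker” vs “Father” sets virgin males that attacked a pup against males with a litter, and it shares its animals with both other comparisons of males. There was 1 DMC among 174 tested cytosines, where 0.958% of all tested cytosines were DMCs. It was cytosine 15357023, at -1402 bp and named after its values were seen. “Attacker” voles had 50% (2 reads) and 100% (16 reads) in replicates 4 and 5, and “Father” voles had 0% in replicates 1 to 4, from 16, 14, 18 and 6 reads. Only 2 of 6 “Attacker” voles had any reads, and 1 of these 2 values came from 2 reads. For comparison, “Parental” voles were at 37.0% and 63.6% (replicates 4 and 6), and 4 “Mother” voles at 0% to 5.26%.

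None of 80 well-covered cytosines passed the adjusted threshold in “Attacker” vs “Father” (0.0268% of all well-covered cytosines did), and 1 passed at an unadjusted p under 0.05, where 1.16% of all did. The arcsine-link model again called none at an adjusted p.
The 1 that passed was cytosine 15361829, at 3404 bp, one of the few intermediate cytosines read deeply in every animal. “Attacker” voles were at 63.0%, 75.8%, 47.6%, 100%, 58.7% and 82.0% in replicates 1 to 6, and “Father” voles at 50.9%, 62.2%, 37.5%, 50.7% and 8.54% in replicates 1 to 5. The means were 71.2% ± 18.7 (SD, n = 6) and 42.0% ± 20.6 (SD, n = 5), and the ranges overlapped between 47.6% and 62.2%. The fitted difference was 29.2 percentage points ± 12.7 (SE), with an unadjusted p of 0.0216 and an adjusted p of 1. “Parental” (52.5% ± 26.2, SD, n = 6) and “Mother” voles (47.6% ± 26.7, SD, n = 6) had means between those of the other groups.
Cytosine 15360169, at 1744 bp, had methylated reads in “Father” voles and in no other group. Replicates 3, 4 and 5 were at 25.6% (43 reads), 30.8% (26 reads) and 10.8% (83 reads), and the other two “Father” voles at 0%. All animals of the other groups were at 0%, from 2 to 83 reads. The difference from “Attacker” was -13.3 percentage points ± 7.34 (SE), which did not pass (unadjusted p = 0.0707, adjusted p = 1). Next came cytosine 15357397 with a difference of 29.3 percentage points ± 18.2 (SE, unadjusted p = 0.108, adjusted p = 1), where the “Father” range of 0% to 100% spanned the “Attacker” values.

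“Father” vs “Mother” compares the sexes among animals with a litter. There were 2 DMCs among 174 tested cytosines, against 1.19% of all cytosines tested, and both were higher in “Father” voles, as were 0.653% of all. These were cytosine 15357562, at -863 bp, and cytosine 15366450, at 8025 bp in the upper flank, both named after their values were seen. The former was at 100% in 3 “Father” voles (14 to 19 reads) and at 0% in 1 “Mother” vole (11 reads). The latter was at 100% in 1 “Father” vole (25 reads) and at 0% in 1 “Mother” vole (16 reads). Each call thus rested on a single “Mother” vole, and the second on a single animal on either side.

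None of 84 well-covered cytosines passed the adjusted threshold in “Father” vs “Mother” (0.0714% of all did). At an unadjusted p under 0.05 with a difference over 15%, 3 of the 84 passed, where 1.37% of all did. The arcsine-link model called none at an adjusted p.
Cytosine 15359319, at 894 bp, had “Mother” levels of 100%, 100%, 34.1%, 100% and 100% in replicates 1, 2, 4, 5 and 6, and “Father” levels of 0%, 85.3%, 0%, 0% and 40% in replicates 1 to 5. All but 1 of the 5 “Mother” values were above every “Father” value, and the exception lay within the “Father” range. The fitted difference (“Father” minus “Mother”) was -59.5 percentage points ± 20.7 (SE), with an unadjusted p of 0.00395 and an adjusted p of 1.
Cytosine 15359378, at 953 bp and read in the same 446 reads, was at 100%, 0%, 34.1%, 100% and 100% in these “Mother” voles. Among “Father” voles, replicate 2 was at 38.2% and the other four were at 0%. The difference was -57.6 percentage points ± 21.2 (SE, unadjusted p = 0.00659 and adjusted p = 1 in the same fit). Since both cytosines lie on the same reads, they count as 1 place and not as separate evidence.
The third, cytosine 15361880 at 3455 bp, was higher in “Father” (68.8% ± 26.1, SD, n = 5) than in “Mother” voles (35.4% ± 22.4, SD, n = 6), with overlapping ranges. Its difference was 32.6 percentage points ± 15.1 (SE, unadjusted p = 0.0308 and adjusted p = 1 in the same fit).

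At some cytosines of S1pr5 the animals of 1 group differed from each other as much as the scale allows. The 5 cytosines named for this were picked for their spread, and 130 of the 203 cytosines had a pooled level under 10%. Of the 5 well-covered cytosines with the largest SD over animals, cytosine 15363223 (4798 bp) ran from 0% to 94.6% in “Attacker”, 0% to 56.4% in “Parental”, 0% to 81.2% in “Father” and 0% to 84.0% in “Mother” voles. Cytosine 15363175, at 4750 bp, was at 100% in 1 “Parental” vole and at 0% in the other five. At cytosine 15357360 (-1065 bp) all 6 “Parental” voles were at 100%, while 1 “Father” (10 reads) and 1 “Mother” vole (12 reads) were at 0%. The remaining members of this set were cytosines 15357397 and 15361880, described above.
Many values were all-or-none. At the 38 cytosines of the region with a pooled level of 20% to 80%, 265 of 455 values with at least 10 reads (58.2%) were exactly 0% or 100%. The share was 24.1% of 87 values at the 4 such cytosines read in all 23 animals, and 66.3% of 368 values at the other 34. In the whole series the shares were 52.3% for all such cytosines, 20.3% for those read in all animals and 60.1% for the rest. The S1pr5 values were therefore close to those of the series, and the chosen CpG is among the cytosines read in fewer animals.

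**Figure D3:**
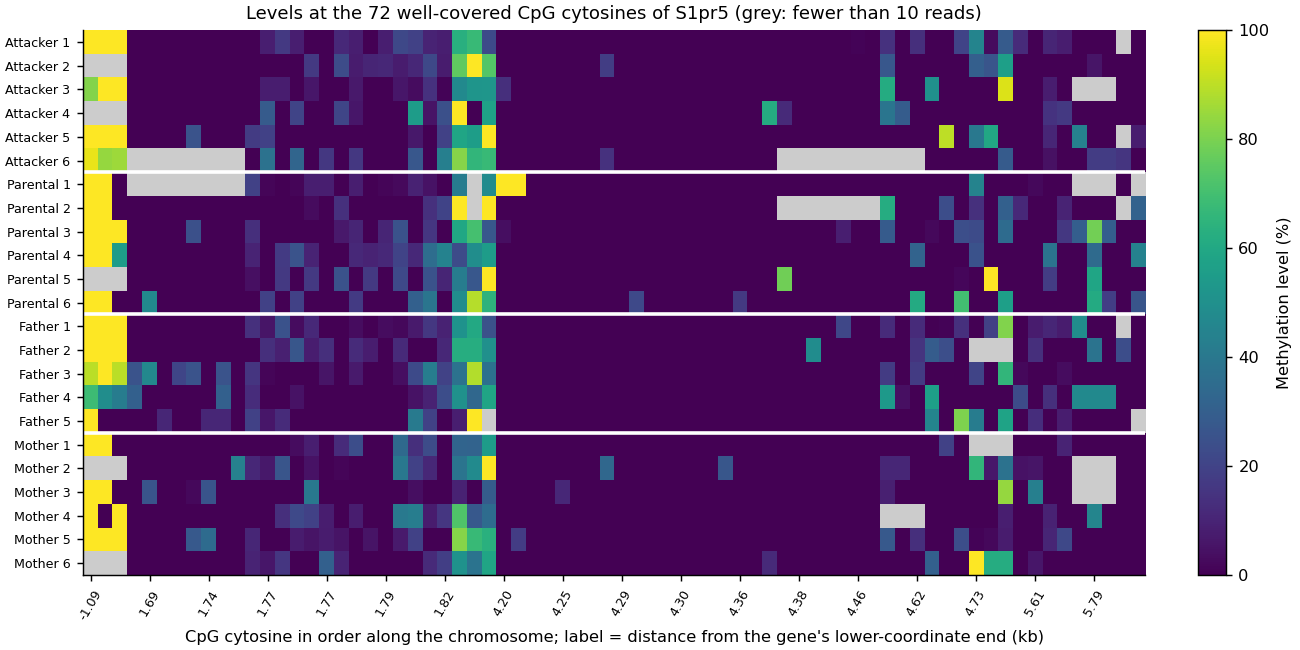
Methylation level (colour, 0 to 100%) at the 72 well-covered CpG cytosines of S1pr5 in order along the chromosome (columns, labelled by distance in kb) in each of the 23 animals (rows, groups divided by white lines). Grey marks fewer than 10 reads. High levels are seen in the first columns and near 3.4 to 3.5 kb, and columns with scattered high values do not follow the groups.

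There were 2 stretches that held 5 or more of the cytosines that every animal covered with 10 reads, at most 100 bp apart. The first had 14 cytosines from 1767 to 1817 bp inside the gene, with a level of 8.20% ± 3.49 for “Attacker”, 7.95% ± 4.14 for “Parental” and 7.52% ± 3.28 for “Mother” voles (SD, n = 6 each) and 6.95% ± 1.78 (SD, n = 5) for “Father” voles. The 4 ranges overlapped, between 3.13% and 14.8% over all animals.
The second had 19 cytosines from 4201 to 4365 bp, across the upper end of the gene, and was nearly unmethylated. “Father” voles were at 0% in all 5 animals, and the highest animal of the remaining groups was a “Parental” vole at 10.5%. The means of the other groups were 0.944% ± 1.19 in “Attacker”, 2.13% ± 4.19 in “Parental” and 0.884% ± 1.17 in “Mother” voles (SD, n = 6 each), and each of their ranges reached down to 0%.

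Over the 41 cytosines that every animal covered with 10 reads or more, the group means of the S1pr5 region lay between 4.89% and 5.97%. The 6 “Attacker” voles were at 4.23% to 8.63%, with a median of 5.57%. “Parental” voles had a median of 5.69% and a range of 4.59% to 7.53%, and “Mother” voles a median of 5.22% and a range of 2.63% to 6.30%. The 5 “Father” voles were at 4.70%, 5.92%, 3.93%, 4.85% and 6.18%. All 4 ranges overlapped. “Attacker” and “Parental” voles had means of 5.97% ± 1.53 and 5.86% ± 1.28 (SD, n = 6 each). The means of “Father” and “Mother” voles were 5.12% ± 0.927 (SD, n = 5) and 4.89% ± 1.28 (SD, n = 6). The differences were 0.113 percentage points for “Attacker” vs “Parental” (exact permutation test, two-sided p = 0.887), 0.858 for “Attacker” vs “Father” (p = 0.316, exact permutation test) and 0.222 for “Father” vs “Mother” (p = 0.775, exact permutation test). None exceeded the spread between animals. The size of these differences depended on which cytosines were averaged and how. Over the alternatives they ran from -0.497 to 2.18 percentage points in “Attacker” vs “Parental”, from -3.21 to 2.84 in “Attacker” vs “Father” and from -1.94 to 2.27 in “Father” vs “Mother”, where the value of 2.27, over the 72 well-covered cytosines, passed the threshold (exact permutation test, two-sided p = 0.026, not adjusted). For this value each animal was averaged over those of the 72 where it had 10 reads or more, so the cytosines differed between animals. Cytosine 15357360 (pooled level 87.2%) entered for 5 “Father” and 4 “Mother” voles, and cytosine 15363223 (35.1%) for 4 “Father” and 5 “Mother” voles. How far this moved the difference was not tested.

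In a limma fit over 10073 gene regions, each the gene with 5 kb on either side, S1pr5 gave the same differences. They were 0.113 percentage points (95% interval -1.40 to 1.62, adjusted p = 0.997) for “Attacker” vs “Parental”, 0.858 (-0.727 to 2.44, adjusted p = 0.934) for “Attacker” vs “Father” and 0.222 (-1.36 to 1.81, adjusted p = 1) for “Father” vs “Mother”. At an adjusted p of 0.05, 0% of gene regions were called in the comparisons with “Attacker” voles (5.61% and 5.21% at an unadjusted p under 0.05), and 0.496% in “Father” vs “Mother”. In the gene span alone (19 cytosines) the order of the groups changed, with means of 9.91% ± 3.29, 10.4% ± 3.23, 7.33% ± 1.66 and 8.20% ± 3.27 (SD, in the same order of groups), and no difference passed the test.

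**Figure D4:**
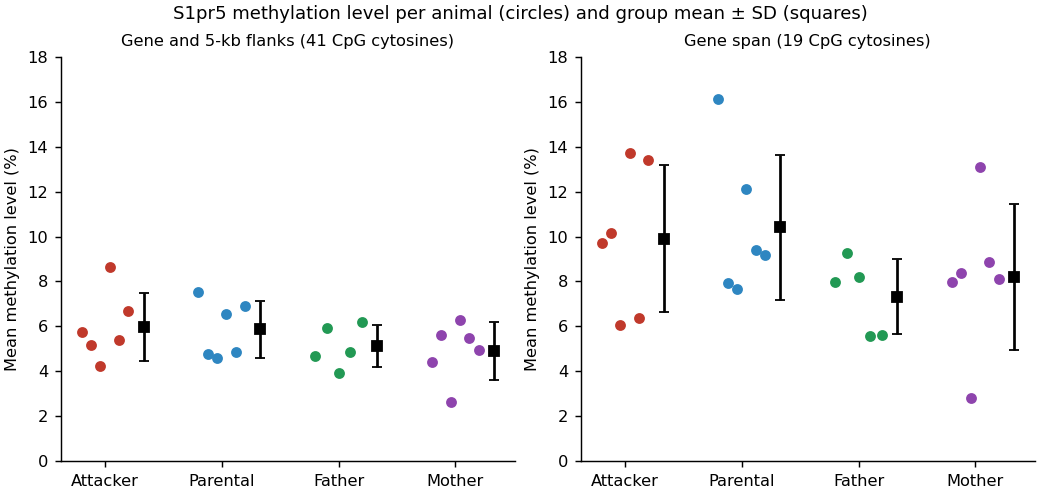
Mean methylation level (%) of S1pr5 per animal (circles) with group mean ± SD (squares), over the 41 cytosines of the gene and its 5-kb flanks (left) and over the 19 cytosines of the gene span (right). The 4 groups overlap in both panels, and the animals of a group spread more in the gene span, from 2.81% to 13.1% in “Mother” voles.

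The other S1P receptors had levels of their own. S1pr4, known from blood cells, was the most methylated of the 4 receptors with a value, with group means between 13% and 15.8% over 42 cytosines. S1pr1, the receptor by which lymphocytes leave lymph nodes, had means between 3.17% and 4.56% (31 cytosines), and S1pr2, a G12/13-coupled receptor, had means between 0.941% and 1.22% (31 cytosines). S1pr5 stood between S1pr1 and S1pr4 in each group. S1pr3 had no value, since it is not placed on a chromosome in the gene table. Each level is a mean over the cytosines of that gene, so the order of the genes was not tested.
None of the receptors passed the adjusted threshold. S1pr4 was 2.76 percentage points higher in “Father” than in “Mother” voles in limma (unadjusted p = 0.0393, adjusted p = 0.886), and S1pr1 and S1pr2 had unadjusted p from 0.162 to 0.992 in the 3 tested comparisons.

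**Figure D5:**
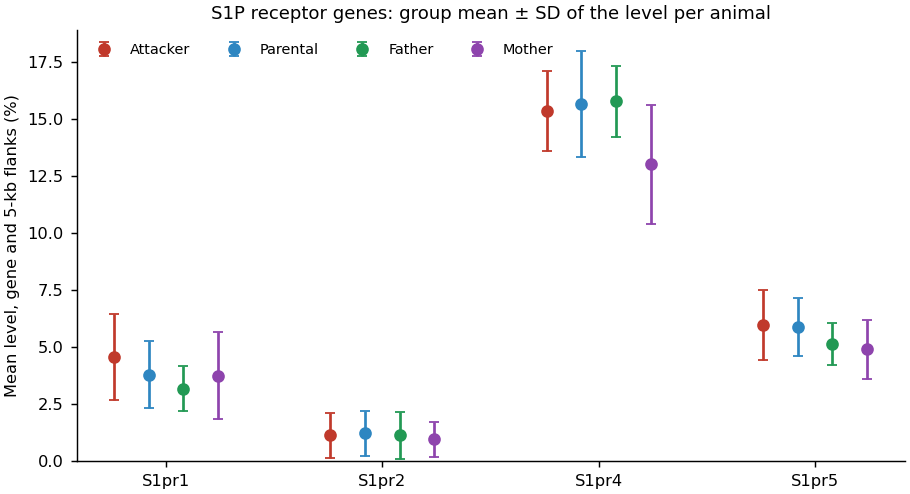
Mean methylation level (%) of the S1P receptor genes S1pr1, S1pr2, S1pr4 and S1pr5 with 5 kb on each side, as group mean ± SD over animals (n = 6, 6, 5 and 6). S1pr5 lies between 4.89% and 5.97% in the 4 groups, and the SD bars of the groups overlap for every receptor.

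The wider S1P list held 38 genes for the receptors, the enzymes that make and break down S1P and ceramide, transporters and G proteins, of which 26 had a value. None passed the adjusted threshold in any of the 4 comparisons. At an unadjusted p under 0.05, limma called 0 of 26 in “Attacker” vs “Parental”, where 5.61% of all gene regions were called. In “Attacker” vs “Father” it called 2 of 26, where 5.21% of all gene regions were called in either direction and 3.03% were called higher in “Attacker”. The 2 list members were Gnai1, a Gi subunit (1.85 percentage points higher in “Attacker”, SE 0.716, adjusted p = 0.869), and Degs2, a ceramide-making desaturase (2.15 higher, SE 0.843, adjusted p = 0.869). The next smallest p was at Cers2, a ceramide synthase (-0.561, adjusted p = 0.924). In “Father” vs “Mother” 2 of 26 were called, both higher in “Father”. Of all gene regions, 5.4% were called in either direction and 2.19% were called higher in “Father”. The 2 list members were S1pr4 and Cerk, the kinase that phosphorylates ceramide (0.692 percentage points, SE 0.295, adjusted p = 0.852), and Degs2 followed at -1.52 (adjusted p = 0.991). The smallest p in “Attacker” vs “Parental” were at the Gi subunits Gnai2 (0.938 percentage points, adjusted p = 0.904) and Gnai1 (1.27, adjusted p = 0.91), and at Asah1, a ceramidase (-0.422, adjusted p = 0.91). The median difference of the 26 genes was 0.0994, 0.0242 and -0.0648 percentage points in the 3 comparisons, beside 0.0614, 0.0556 and -0.0013 for all gene regions.
Of 12 oligodendrocyte genes, 5 had a value, among them Mbp, Mag, Olig1 and Olig2, and 0 of 5 passed at an unadjusted p under 0.05 in any of the 4 comparisons, where 4.12% to 5.61% of all gene regions did. The smallest p was 0.0516 (limma, unadjusted, adjusted p = 0.872) for Olig1, a transcription factor of the lineage, at -0.613 percentage points in “Attacker” vs “Parental”.

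Across the 23 animals, the genes whose regional level was most like that of S1pr5 were Hspa12a and Cdt1, with Pearson correlations of 0.754 and 0.751. They are the 2 highest of 10072 genes, and both share the libraries and their depth with S1pr5. The Hspa12a level ran from 3.62% to 8.30% and that of Cdt1 from 0% to 2.27%.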

How the data were processed

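RRBS libraries of the DG of 23 voles were used, 1 per animal, grouped by the condition in the labels. The labels name bcl2fastq, Trim Galore and Bismark. The authors aligned trimmed reads to MicOch1.0 and deposited raw counts per animal, with total and methylated reads of every CpG cytosine on each strand. Counts were used as deposited. The gene span came from a RefSeq table of the same assembly, without strand or exons.

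S1pr5, the cytosines named and the gene lists were chosen with earlier results of these data known. Named by rule were the chosen CpG, listed cytosines within 100 bp, the 3 smallest p among well-covered cytosines per comparison, the 5 largest SDs, the S1P receptors, list members past the adjusted threshold (otherwise the 3 smallest p) and the 3 genes most correlated with S1pr5, of which 1 is not reported here.

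Cytosines were tested over the whole table with a re-implementation of the beta-binomial Wald test of DSS (2 groups per fit, no smoothing). Well-covered cytosines had 10 reads or more in 4 or more animals of both groups compared and a Benjamini-Hochberg adjusted p. Regional levels were tested with exact permutation tests, and over all genes with at least 5 cytosines with limma 3.58.1 in R 4.3.3 (all 4 groups in 1 fit). Other steps used Python 3.11.15, numpy 2.4.6, scipy 1.17.1, pandas 2.3.3 and numba 0.67.0. The fits without a replicate block were tested on simulated data for “Attacker” vs “Parental”, with 200 members changed. The change was large, 60 percentage points at well-covered cytosines of low level and 4 SD in gene regions. Recovery of smaller changes was not tested. The DMC score recovered 100% of the changed cytosines and made 1402 false calls among 200000 cytosines. Adjusted calls recovered 97.5% (65 false calls among 91862) in the Wald test and 97% (88 false calls) in the arcsine-link model. In limma 99% were recovered, with 7 false calls among 10073 gene regions. Labels give the groups the same replicate numbers for separate animals. RNA-seq was not analysed here.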

Additional observations from a re-analysis of the deposited data

Results flagged for a closer look

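In 59 sets of 4 to 6 values (the regional means and the named cytosines, animals with at least 10 reads), the animal at the end of a group stood apart from the rest by Dixon's ratio in 13, where chance flags about 1 in 20 sets. The many values at exactly 0% or 100% make such gaps easy to reach. No regional mean was among them.

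Below the gene, cytosine 15357360 was at 84.1% in “Attacker” replicate 6 and at 0% in “Mother” replicate 4, with the others of each group at 100%. Cytosine 15357397 was at 85.2% in “Attacker” replicate 6, with the others at 100%. At the chosen cytosine 15359049, “Parental” replicate 4 was at 14.3%, with the others at 0%. Cytosine 15359082 was at 100% in “Father” replicate 1, with the others at 0% to 4.76%. Cytosine 15359319 was at 25.5% in “Attacker” replicate 5 (others at 0%) and at 34.1% in “Mother” replicate 4 (others at 100%). Cytosine 15359378 was at 38.2% in “Father” replicate 2, with the others at 0%. Cytosine 15360193 was at 19.4% in “Parental” replicate 6, with the others at 0% to 1.19%. In the upper flank, cytosine 15363175 was at 100% in “Parental” replicate 5 and 18.8% in “Father” replicate 1, with the others of each group at 0%, and at 61.9% in “Mother” replicate 6 (others at 0% to 6.25%). Cytosine 15364210 was at 45.5% in “Mother” replicate 4, with the others at 0%.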

How the results depend on the processing

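Of 60 values under another setting, 42 kept their direction and their side of the threshold or, for counts, stayed within 1.5 times. With 5 reads or more in 3 or more animals per group, the DMCs of S1pr5 numbered 1 in “Attacker” vs “Parental” and were 0 when “Attacker” was set against “Father”, and 1 adjusted call appeared in the former. In “Attacker” vs “Parental” the chosen CpG met this read limit and cytosine 15365198 did not. The DMC and the adjusted call can therefore be the chosen CpG, and they are not read as results. The arcsine-link model at an unadjusted p gave 11 of 168 cytosines in “Attacker” vs “Parental”, where it called 4.88% of all. It gave 10 of 174 in both “Attacker” vs “Father” and “Father” vs “Mother”, where it called 5.03% and 4.96% of all. These counts can include the chosen CpG, which is not read as a result. The difference of the regional mean turned to -0.297, -3.21 and -1.94 percentage points with at least 20 reads in every animal (2 cytosines). With the 72 well-covered cytosines it was -0.311, -0.153 and 2.27, the last past the threshold (exact permutation p = 0.026, 3 comparisons tested). There each animal was averaged over those of the 72 with 10 reads or more, so the cytosines differed between animals. In the gene span alone “Attacker” vs “Parental” was at -0.497 and “Father” vs “Mother” at -0.876, in the permutation test and in limma. The causes were not tested. Chosen after seeing the data, 1 mean per group of cytosines on the same reads gave larger differences of 2.18, 2.84 and 0.599 percentage points (exact permutation p = 0.184, 0.0866 and 0.762), and read weights scaled over all cytosines changed no count. Leaving out the chosen CpG and its neighbours gave no other regional mean, as none of them had 10 reads in every animal.

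The replicate numbers name separate animals, and the deviations of same-numbered animals correlated between -0.142 and 0.21 over genes. The animals were therefore not paired by number, and whether the numbers mark a shared batch was not tested. With the replicate block, the arcsine-link model could fit fewer cytosines and gave 3, 3 and 8 at an unadjusted p. It called 2.15%, 2.3% and 2.23% of all cytosines fitted, and the number fitted at S1pr5 is not given here. These counts, too, can include the chosen CpG. S1pr5 in limma with the block had differences of 0.113, 0.739 and 0.341 percentage points (adjusted p of 0.964 or more).

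With 1 animal left out at a time, the DMCs ranged from 2 to 5 in “Attacker” vs “Parental” (5 without “Attacker” replicate 3), from 0 to 5 in “Attacker” vs “Father” (0 without “Attacker” replicate 5, 5 without “Attacker” replicate 3, 3 without “Attacker” replicate 6 or “Father” replicate 1, 2 without “Attacker” replicate 1 or 4 or “Father” replicate 3) and from 2 to 6 in “Father” vs “Mother” (6 without “Father” replicate 4, 4 without “Father” replicate 1, 2 or 5 or “Mother” replicate 3 or 6). The adjusted calls ranged from 0 to 1 in “Attacker” vs “Parental” (1 without “Parental” replicate 2), from 0 to 0 in “Attacker” vs “Father”, and from 0 to 1 in “Father” vs “Mother” (1 without “Father” replicate 2 or “Mother” replicate 2 or 4). The regional mean ranged from -0.419 to 0.461, from 0.327 to 1.21 and from -0.232 to 0.518 percentage points, in the permutation test and in limma alike, and no p passed. It turned negative in “Attacker” vs “Parental” without “Attacker” replicate 4 or 6 or “Parental” replicate 2, 3 or 5, and in “Father” vs “Mother” without “Father” replicate 5 or “Mother” replicate 3. At cytosines read in few animals the calls rest on few values. The DMC counts with an animal left out can include the chosen CpG, which is not read as a result.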
